A study of Mus musculus with 18 samples.

Results

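The oxidative phosphorylation genes described here mostly code for subunits of respiratory complexes I, III and IV and of ATP synthase. Subunits with symbols outside the rule are not among them. They were taken by symbol: Ndufa, b, c, s and v genes for complex I, Uqcr genes for complex III, Cox4 to Cox8 genes for complex IV, Atp5 genes for complex V, and the mt- genes that code for proteins. The rule gave 93 of the 54446 genes in the table, 80 of them in the nucleus and 13 on the mitochondrial genome; 2 further matches with -ps in their symbol were left out. Of the nuclear members, 35 belong to complex I, 8 to complex III, 19 to complex IV and 18 to complex V. Ndufa4, now known as a complex IV subunit, was counted there. Atp5s is a coupling factor and not a structural subunit. Cox6c2, counted in complex IV, is annotated as a processed pseudogene. The table holds the symbol Atp5o on 2 entries, the second of which had 0 reads.

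Oxidative phosphorylation passes electrons from nutrients along complexes I to IV to oxygen, pumps protons across the inner mitochondrial membrane, and lets them return through ATP synthase, which makes ATP. Subunits of complexes I, III, IV and V are encoded in 2 genomes: most in the nucleus, and a small hydrophobic core on the mitochondrial genome, which is transcribed as long joint precursors. Neurons draw most of their ATP from this pathway. Some complex IV subunits exist in a ubiquitous form and in a form known from muscle, lung or testis.

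The data come from 6 outbred CD-1 mice, whose neocortex was taken at postnatal day 7 for total RNA sequencing. Plasmids had been brought into the ventricular wall by in utero electroporation at E14.5, which reaches a fraction of the cells born then. The 3 GFP mice received empty plasmid with Gfp cDNA, 2 huFOXP2 mice human FOXP2 cDNA with Gfp, and 1 moFoxp2 mouse mouse Foxp2 cDNA with Gfp; these last 3 together are called FOXP2 mice. Sagittal sections of 300 µm were dissected into L2-3 (upper layers), L4 and L5-6 (deep layers), and pieces were pooled per mouse, which gave 18 libraries. The labels call both L2-3 and L5-6 infragranular; the layers are used here as numbered in the titles. They describe L4 as GFP-positive and the other layers as GFP-negative, so each library holds tissue of many cell types and not sorted cells, and fewer cells of a type cannot be told apart from less RNA per cell. The promoter of the plasmids is not given in the sources used here.

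Library totals ran from 10111149 to 23404528 counts. Levels are in CPM, the usual scale of counts relative to library size, here with TMM-scaled totals. Foxp2 separated the groups in L4, at 5.38 to 8.74 CPM in the 3 GFP mice and 33.25 to 64.9 CPM in the 3 FOXP2 mice, and also in L2-3, labelled GFP-negative, at 1.77 to 6.53 and 20.18 to 52.3 CPM. It did not separate them in L5-6, where it lay at 52.4 to 68.5 CPM in GFP mice and 39.6 to 77.7 CPM in FOXP2 mice. All 8 markers of layer 5-6 neurons were higher in L5-6 than in L4 and than in L2-3 (edgeR adjusted p of 0.00643 or less). Summed layer 2-3 neuron markers overlapped between L2-3 and L4 in GFP mice (996 to 1106 and 875 to 1074 CPM). In FOXP2 mice they were lower in L2-3 (776 to 833 CPM) than in L4 (1122 to 1166 CPM). Layer 4 markers overlapped in GFP mice (457 to 672 CPM in L2-3, 610 to 676 in L4). They did not in FOXP2 mice (318 to 337 and 574 to 698 CPM). The part of the dissection in L4 against L2-3 values was not tested. Meningeal fibroblast markers stood in L2-3 at a summed 394 to 2022 CPM over the 6 mice and at no more than 89.9 CPM in the other layers. Oligodendrocyte lineage markers stood at 1170 to 3842 CPM in L5-6 and at 866 CPM or less elsewhere. GFP mouse 1 stood apart from the other mice in several of the values below, and counts that turn on it are also given without it.

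Of the 13 mt- genes, 7 were counted at high levels and 6 were at or next to 0 in every library. The 7 are mt-Nd1, mt-Nd2, mt-Nd4, mt-Nd5 and mt-Nd6 of complex I, mt-Cytb of complex III and mt-Co1 of complex IV, with 392563 (mt-Nd6) to 3776278 (mt-Co1) reads over the 18 libraries. The 6 are mt-Co2 with 2 reads in all, mt-Co3 with 1, and mt-Atp6, mt-Atp8, mt-Nd3 and mt-Nd4l with 0. A count of 0 allows up to 0.128 CPM in the deepest and 0.297 CPM in the shallowest library (3 counts, totals not scaled); such floors cover counting error only. The 6 genes lie side by side, from base 7013 to base 10173 of the mitochondrial chromosome (GRCm38, GENCODE M21).

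Chromosome 1 carries a copy of this stretch, annotated over these genes as 6 unprocessed pseudogenes on the minus strand between 24611535 and 24615565 (GRCm38). The sequences below show how close the copy is, at the start of mt-Nd3 and at the place where it ends inside mt-Nd4. Each is written 5′ to 3′, from GENCODE M21 transcripts. Capitals mark bases of the mitochondrial gene with no identical base in the copy, and the base of the copy that differs.
mt-Nd3: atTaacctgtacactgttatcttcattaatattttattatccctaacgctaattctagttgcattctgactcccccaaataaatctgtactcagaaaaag
Gm28438: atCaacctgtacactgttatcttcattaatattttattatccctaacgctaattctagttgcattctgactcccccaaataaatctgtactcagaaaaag
mt-Nd4: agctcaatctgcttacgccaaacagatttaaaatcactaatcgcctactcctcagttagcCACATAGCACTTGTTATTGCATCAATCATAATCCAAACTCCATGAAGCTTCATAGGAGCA
Gm28439: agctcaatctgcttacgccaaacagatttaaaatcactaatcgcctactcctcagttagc
The mt-Nd3 run covers its first 100 bases (chrM:9459-9558, plus strand) and the pseudogene run lies at chr1:24613020-24613119, minus strand. Along the 345 bases of Gm28438 there was 1 difference from mt-Nd3, T3C, counted from the first base of the gene. The mt-Nd4 run covers bases 817 to 936 (chrM:10983-11102) and the Gm28439 run is at chr1:24611535-24611594. All 876 bases of Gm28439 were identical to the first 876 of the 1378 bases of mt-Nd4, and the copy stops there.

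The other pseudogenes were as close: 681 of 681 bases of Gm28661 were identical to mt-Co2, 678 of 678 of Gm10925 to mt-Atp6, 783 of 783 of Gm28437 to mt-Co3 and 294 of 294 of Gm10222 to mt-Nd4l. Between the copies of mt-Atp6 and mt-Co2 lie 233 bases with no annotated gene, as many as between those matched parts on the mitochondrial genome, where mt-Atp8 begins. Each gene was cut into overlapping windows of 50 bases, and those found letter for letter in another annotated gene were counted. The share was 98.0% to 100% for 5 of the 6 genes near 0. It was 0% for mt-Atp8, whose place in the copy is not annotated. Among the 7 counted genes the share was 62.2% for mt-Nd4, 51.1% for mt-Co1, 8.19% for mt-Nd2, 7.61% for mt-Nd5, and 0% for mt-Nd1, mt-Nd6 and mt-Cytb. The 6 pseudogenes were near 0 too, at no more than 7 reads in any library, except Gm28438 with 23 to 132. How reads that match several places were counted is not given in the sources used here, and its part in the counts near 0 was not tested. The plot of reads along the mitochondrial genome shows the gap.

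**Figure D1:**
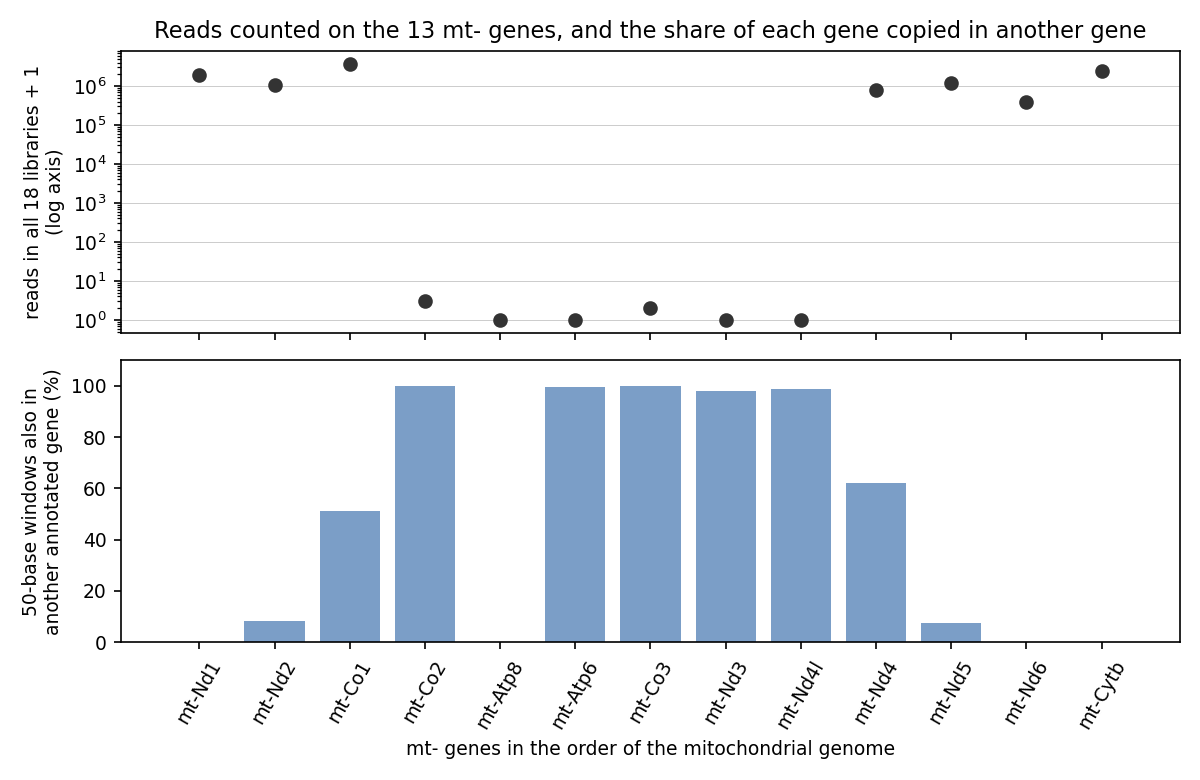
Top, reads in all 18 libraries (plus 1, log axis) on the 13 mt- genes in genome order; bottom, the percentage of each gene's 50-base windows found in another annotated gene. The 6 genes from mt-Co2 to mt-Nd4l have 0 to 2 reads, and 5 of them share 98.0% or more of their windows, while mt-Atp8 shares none.

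Some nuclear members share sequence as well. Of the 80, 35 had no 50-base window in another gene and 6 had more than 40%. Atp5l, subunit g of ATP synthase on chromosome 9 (44912557 to 44920742), shared 84.8% of its windows with 14 other genes and had 311 reads in all 18 libraries. Its first 90 coding bases are printed beside those of the processed pseudogene Gm10221 (chr5:24581773-24581862, minus strand), with no capitals because no base differs.
Atp5l: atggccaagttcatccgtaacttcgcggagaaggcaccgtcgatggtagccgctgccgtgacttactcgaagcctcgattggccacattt
Gm10221: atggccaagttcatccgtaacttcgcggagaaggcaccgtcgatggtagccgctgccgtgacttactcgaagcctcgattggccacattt
All 309 bases of Gm10221 were identical to Atp5l, and Gm10221 had 126 reads. Counts of Atp5l are therefore uncertain, and so are those of the counted Atp5o entry (50.3% of windows shared, 20732 reads), Atp5h (47.9%) and Uqcrb (43.4%). The other 2 above 40%, Cox6c2 and the second Atp5o entry, did not pass the filter on low counts.

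Per length of merged exons, levels ranged widely. mt-Co1, a catalytic core subunit of complex IV, had 8512 CPM per kb as the mean of 18 libraries, mt-Cytb 7234, mt-Nd1 7031, mt-Nd2 3665, mt-Nd6 2667, mt-Nd5 2319 and mt-Nd4 2050. Windows shared with other genes, 62.2% in mt-Nd4 and 51.1% in mt-Co1, were not taken out of the lengths. Unlike the other mt- members, mt-Nd6 lies on the minus strand (bases 13552 to 14070), and it overlaps the end of mt-Nd5. How strand was handled in the counts is not given in the sources used here. These mt- levels may therefore not be on an equal base. The nuclear members with most per length were Cox6a1 (511 CPM per kb), Cox8a (492), Cox6b1 (364), Atp5a1 (329), Atp5b (298) and Cox4i1 (254). Their order depends on the length used, because merged exons can be much longer than a single transcript. For Atp5b they cover 4237 bases against 1916 in its longest coding transcript, and for Cox6a1 702 against 571. Cox6a1, Cox8a, Cox6b1 and Cox4i1 are ubiquitous complex IV subunits, and Atp5a1 and Atp5b form the catalytic head of ATP synthase. In complex IV the tissue-restricted forms were far lower. Cox6a2 stood at 6.13 CPM per kb, Cox4i2 at 2.58, Cox7a1 at 1.80, Cox6b2 at 1.73, Cox7b2 at 0.567 and Cox8b at 0.0452, while Cox8c had 1 read in all libraries. Cox7a2 and Cox7b, the forms found in most tissues, had 162 and 100.1. Subunit c of ATP synthase comes from 3 genes, and Atp5g3 (148 CPM per kb) lay above Atp5g1 (21.3) and Atp5g2 (9.68). Ndufa4 had 174 CPM per kb.

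The mt- genes as a group held 2.71% to 6.85% of all reads in a library and the nuclear members 0.863% to 1.15%. Summed mt- CPM in L2-3 was 44650, 37050 and 34526 in the 3 GFP mice and 41187, 36081 and 43695 in the 3 FOXP2 mice (huFOXP2 mouse 1, huFOXP2 mouse 2, moFoxp2 mouse 1). For L4 it was 47799, 33127 and 31969 in the GFP mice, and 38667, 32669 and 28258 in the FOXP2 mice. L5-6 gave 63699, 40749 and 44497 in the GFP mice and 46529, 38738 and 43266 in the FOXP2 mice. L5-6 was highest of the layers in 5 of 6 mice, and was higher than L4 in 6 of 6, by 0.25 to 0.61 on the log2 scale. Mice of different layers overlapped, and GFP mouse 1 was highest in each layer. Nuclear members summed to 8841 to 11152 CPM in L2-3, 9242 to 10908 in L4 and 8974 to 10455 in L5-6. The ratio of mt- to nuclear reads was higher in L5-6 than in L4 in 6 of 6 mice (log2 0.28 to 0.70) and higher than in L2-3 in 6 of 6 (0.051 to 0.83).

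**Figure D2:**
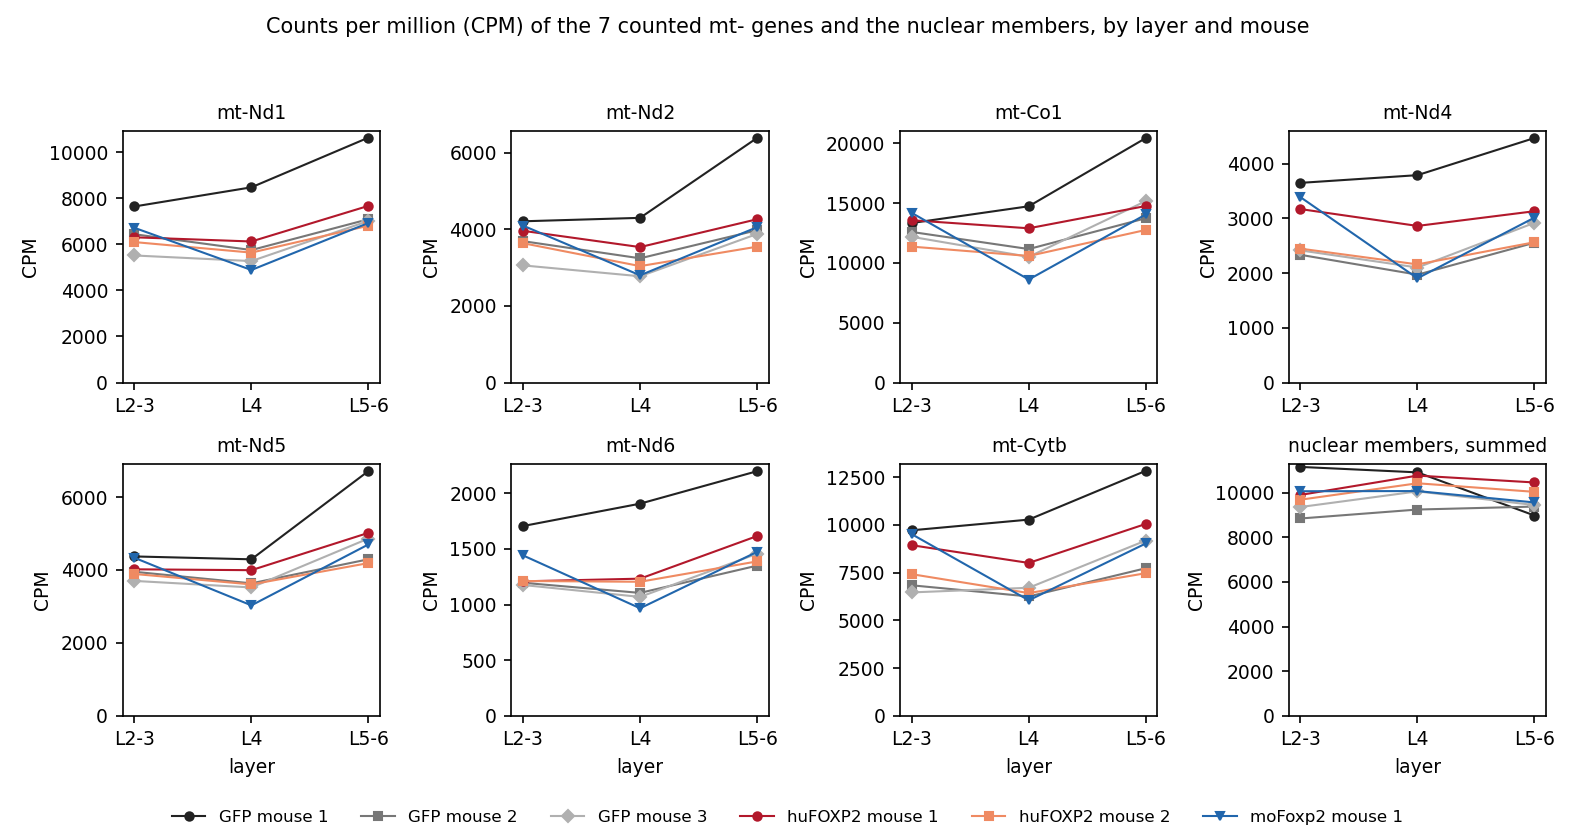
CPM of the 7 counted mt- genes and of the nuclear members summed (vertical axes, from 0) in each layer (horizontal), with 1 line per mouse. Lines of the mt- genes run upward from L4 to L5-6 in all 6 mice, GFP mouse 1 lies highest in L5-6, and the summed nuclear members stay between 8841 and 11152 CPM.

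The mt- genes were higher in L5-6 than in L4. In GFP mice 7 of the 7 tested passed (edgeR quasi-likelihood test with the mouse as block, adjusted p under 0.05 over 15952 genes), where 16.4% of all genes tested passed as higher. mt-Co1 stood at 14743, 11163 and 10514 CPM in L4 of GFP mice 1 to 3 and at 20447, 13741 and 15174 CPM in L5-6. Each mouse was higher in L5-6, although GFP mouse 1 in L4 lay above GFP mouse 2 in L5-6. Its log2 fold change, with the SE, was 0.44 ± 0.12 (edgeR adjusted p = 0.0155). mt-Nd5, a proton-pumping subunit of complex I, stood at 4293, 3634 and 3521 CPM in L4 and at 6714, 4294 and 4863 CPM in L5-6. Its change of 0.46 ± 0.11 (edgeR adjusted p = 0.00607) was the largest of the 7, and that of mt-Nd6 the smallest with 0.31 ± 0.11 (adjusted p = 0.0366). Without GFP mouse 3 only 1 of the 7 passed.

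In FOXP2 mice 6 of 7 passed as higher in L5-6 than in L4, against 8.73% of all genes. mt-Co1 had 12900, 10584 and 8614 CPM in L4 and 14765, 12761 and 14057 in L5-6 (huFOXP2 mouse 1, huFOXP2 mouse 2, moFoxp2 mouse 1). Each mouse was higher in L5-6, with an overlap between huFOXP2 mouse 1 in L4 and huFOXP2 mouse 2 in L5-6. The change was 0.38 ± 0.12 (edgeR adjusted p = 0.0493), and mt-Nd6 rose by 0.39 ± 0.11 (adjusted p = 0.0223). mt-Nd4 missed the threshold with 0.34 ± 0.11 (adjusted p = 0.0594). Leaving out any 1 of the 3 FOXP2 mice took the count to 0, and leaving out GFP mouse 3, which shares the estimate of spread, to 3.

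Over all 6 mice in 1 fit, a contrast added after the data were seen, all 7 passed, by 0.35 (mt-Nd4) to 0.42 (mt-Nd5), where 18.6% of all genes were higher. The count stayed at 7 when each mouse was left out in turn and fell to 3 without the mouse as block. Each of the 7 genes was higher in L5-6 than in L4 in 6 of 6 mice. Among other values that moved in this direction, all 8 oligodendrocyte lineage markers and 5 of 6 microglia markers were higher in L5-6 than in L4. The 4 nuclear retained RNAs (Malat1, Meg3, Neat1 and Snhg11) were also higher, by 0.72 to 1.78. The part of these cell types, or of RNA quality, in the mt- values was not tested.

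Against L2-3, the L5-6 values of the mt- genes were less clear. GFP mice gave 5 of 7 passed as higher, against 15.3% of all genes, with mt-Nd5 at 4372, 3951 and 3701 CPM in L2-3 and 0.38 ± 0.11 higher in L5-6 (edgeR adjusted p = 0.0151). mt-Nd4 and mt-Nd6 missed the threshold there (adjusted p = 0.136 and 0.0559). Without GFP mouse 1 the count was 1, and without GFP mouse 3 it was 0. FOXP2 mice gave 0 of 7, with changes from -0.04 (mt-Nd4) to 0.21 (mt-Nd6), against 18.2% of all genes higher and 19.4% lower; none had an unadjusted p under 0.05, DESeq2 also gave 0, and 1 passed without the moFoxp2 mouse. All 6 mice together gave 3 of 7 as higher (mt-Nd1, mt-Nd5 and mt-Nd6), against 18.9% of all genes, and 0 when GFP mouse 1 or GFP mouse 3 was left out; leaving out huFOXP2 mouse 1 gave 1 and leaving out the moFoxp2 mouse gave 5. The test of the difference between FOXP2 and GFP mice in this contrast passed for 0 of the 7 (background 6.75% higher and 8.66% lower); 2 had an unadjusted p under 0.05, and DESeq2 gave 0.

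L4 against L2-3 gave 0 of 7 in GFP mice, with a median of -0.07 over the 7, where 3.3% of all genes were higher and 7.25% lower; no mt- gene had an unadjusted p under 0.05, and DESeq2 gave 0. FOXP2 mice gave 3 of 7 as lower in L4, against 21.1% of all genes: mt-Nd4 (-0.38 ± 0.11, edgeR adjusted p = 0.0150), mt-Cytb (-0.34 ± 0.10, adjusted p = 0.0131) and mt-Nd2 (-0.32 ± 0.09, adjusted p = 0.0145). mt-Cytb stood there at 8940, 7422 and 9518 CPM in L2-3 and at 8011, 6431 and 6053 CPM in L4, so the moFoxp2 mouse moved most. Without the moFoxp2 mouse 0 of 7 passed, and without GFP mouse 1, which shares the estimate of spread, 6 did. Over all 6 mice only mt-Nd4 passed as lower (-0.26 ± 0.09, adjusted p = 0.0391), where 19.1% of all genes were lower; without GFP mouse 1 it was 6 of 7, and without any 1 of the others 0.

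Nuclear members differed little between layers. Of the 80, 75 passed the filter on low counts. The other 5 were Cox8b, Cox8c, Cox7b2, Cox6c2 and the second Atp5o. In L4 against L2-3 the median of the 75 was 0.02 in GFP mice and 0.02 in FOXP2 mice. For L5-6 against L2-3 it was -0.09 and -0.02, and for L5-6 against L4 -0.10 and -0.06. GFP mice had 0 of 75 called in L4 against L2-3 (3 at an unadjusted p under 0.05, and 0 by DESeq2). They had 1 higher and 7 lower in L5-6 against L2-3 (15.3% and 14.9% of all genes). In L5-6 against L4 they had 1 higher and 3 lower (16.4% and 14.6% of all genes). FOXP2 mice had 7 higher and 3 lower in L4 against L2-3 (19.3% and 21.1% of all genes). They had 5 higher and 10 lower in L5-6 against L2-3 (18.2% and 19.4%), and 0 higher and 1 lower in L5-6 against L4 (8.73% and 6.64%). The shares of members called were under those of all genes in each contrast. Leaving out GFP mouse 1 or GFP mouse 3 took the 8 calls of GFP mice in L5-6 against L2-3 to 4 and 2, and leaving out any 1 FOXP2 mouse took the 15 of FOXP2 mice to 6. Those lower in L5-6 than in L2-3 in GFP mice included Cox4i2 (-0.74 ± 0.23), Ndufb6 (-0.31 ± 0.08), Ndufb11 (-0.26 ± 0.08), Atp5e (-0.25 ± 0.08), Ndufc2 (-0.23 ± 0.07) and Ndufb5 (-0.20 ± 0.06), the Nduf genes among them being accessory complex I subunits (edgeR adjusted p of 0.0345 or less). FOXP2 mice had Cox6a2 (1.84 ± 0.40), Ndufs1 (0.31 ± 0.07), Cox5a, a ubiquitous complex IV subunit (0.30 ± 0.10), Atp5a1 (0.23 ± 0.07), Atp5f1, the peripheral stalk b subunit (0.22 ± 0.07), and Uqcrc2 (0.20 ± 0.07) higher in L4 than in L2-3 (adjusted p of 0.0328 or less). Genes of cytosolic ribosomal proteins, another large set of abundant short mRNAs, were lower in L4 than in L2-3 in 40 of 84 tested in GFP mice and 76 of 84 in FOXP2 mice. Of all genes tested, 7.25% were called lower there in GFP mice and 21.1% in FOXP2 mice.

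In the fit over all 6 mice, 4 nuclear members were higher and 4 lower in L4 than in L2-3 (16.3% and 19.1% of all genes). L5-6 against L2-3 gave 3 higher and 9 lower (18.9% and 19.3%), and L5-6 against L4 gave 1 higher and 5 lower (18.6% and 16.2%). Without GFP mouse 1 the count in L4 against L2-3 was 19, with 14 higher and 5 lower; it was 4 without GFP mouse 2 or huFOXP2 mouse 1, and 3 without huFOXP2 mouse 2 or the moFoxp2 mouse. L5-6 against L4 gave 3 without GFP mouse 3 and 2 without huFOXP2 mouse 2. The plot of layer differences shows nuclear members mostly near 0, with the few far from it in complexes IV and V.

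**Figure D3:**
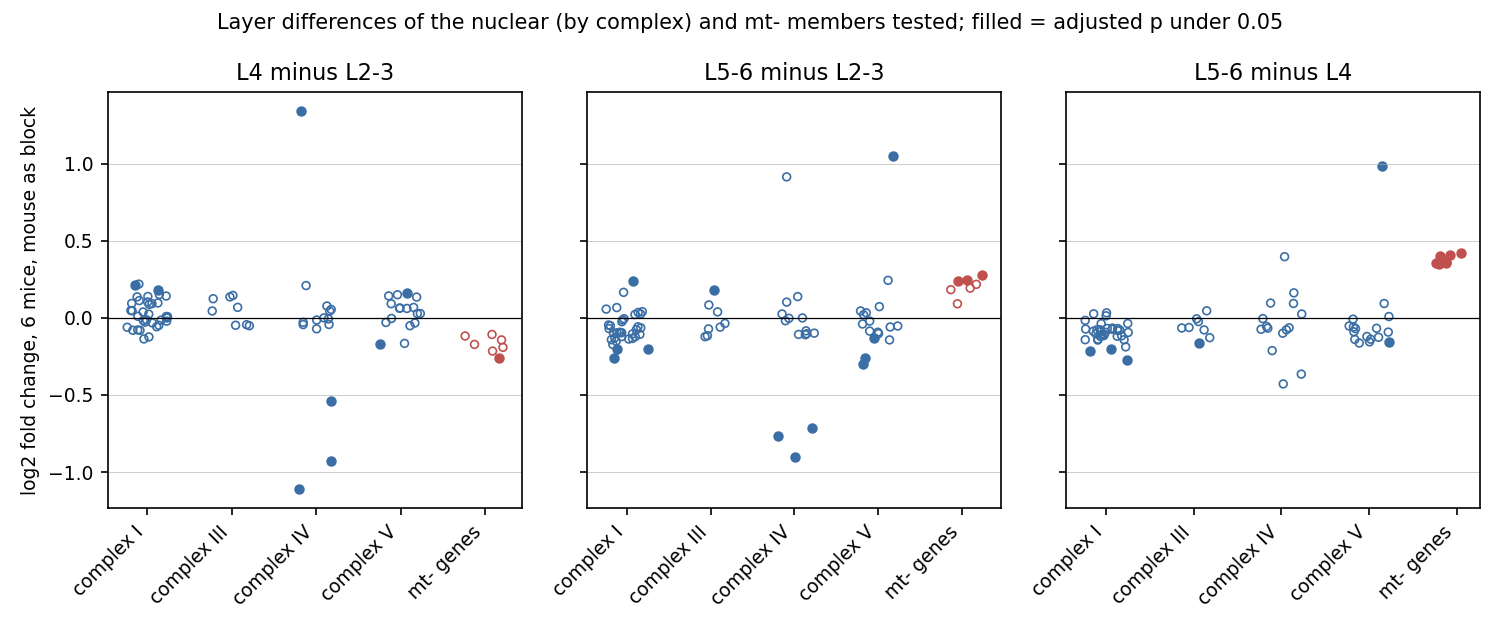
Log2 fold change between layers over all 6 mice (vertical) of each member tested, nuclear members by complex (blue) and the 7 mt- genes (red); filled points passed the test. The mt- genes lie together at 0.35 to 0.42 in L5-6 minus L4, and nuclear members far from 0 are tissue-restricted complex IV subunits and Atp5l.

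By complex, the medians in L5-6 against L4 over all 6 mice were -0.09 in complex I (35 tested, 3 lower), -0.06 in complex III (8 tested, 1 lower), -0.06 in complex IV (15 tested, none called) and -0.09 in complex V (17 tested, 1 higher and 1 lower). Of the 75, 63 were below 0. Those called lower were Ndufa5, Ndufb6 and Ndufb11, accessory subunits of complex I, Uqcrfs1, the Rieske iron-sulfur protein of complex III, and Atp5h, subunit d of ATP synthase. Their changes ran from -0.27 ± 0.09 (Ndufa5, edgeR adjusted p = 0.0307) to -0.16 ± 0.04 (Atp5h, adjusted p = 0.0135). Each was lost in 3 or more of the alternatives, and the median of all genes tested was 0.01.

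Against L2-3, Ndufs1 was the only complex I subunit called higher in L5-6 over all 6 mice, and the subunits named here as lower were accessory. These calls do not describe core or accessory subunits as classes, since the other core subunits were not called higher. Ndufb11, an accessory subunit of the membrane arm (chromosome X, 20615326 to 20617619), stood at 126, 95.2 and 103 CPM in L2-3 of the GFP mice and at 87.2, 86.2 and 95.6 CPM in L5-6. FOXP2 mice had 116, 107 and 125 CPM in L2-3 and 103, 93.3 and 95.05 CPM in L5-6. It was lower in L5-6 in 6 of 6 mice, by 0.26 ± 0.06 on the log2 scale (edgeR adjusted p = 0.00337), and kept its call in 11 of 11 alternatives. Ndufb7 (-0.20 ± 0.05) and Ndufa13 (-0.20 ± 0.06), also accessory subunits, were called lower as well.

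Ndufs1, the largest core subunit, which carries iron-sulfur clusters in the peripheral arm (chromosome 1, 63143596 to 63176833), was higher. It stood at 108, 111 and 118 CPM in L2-3 of GFP mice, 116, 121 and 129 in L4, and 115, 118 and 122 in L5-6. FOXP2 mice had 88.7, 110.5 and 96.0 CPM in L2-3, 113, 127 and 126 in L4, and 135, 131 and 122 in L5-6. The L2-3 values of FOXP2 mice lay under those of the other layers, while values of the GFP mice overlapped. Over all 6 mice Ndufs1 rose by 0.24 ± 0.07 in L5-6 (edgeR adjusted p = 0.0102) and by 0.21 ± 0.07 in L4 (adjusted p = 0.0221), in 6 of 6 mice each. The L4 call was lost in 3 of 11 alternatives. In L5-6 against L2-3, FOXP2 mice alone gave 0.40 ± 0.07 (edgeR adjusted p = 0.00056), and in GFP mice alone Ndufs1 was not called. Uqcrc2, a core protein of complex III, was higher in L5-6 than in L2-3 too (0.18 ± 0.05, adjusted p = 0.0166), a call lost in 4 of 11 alternatives. GFP mouse 1 went the other way for Uqcrc2, with 179 CPM in L2-3 and 169 CPM in L5-6.

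In complex V, Atp5e, the small epsilon subunit of the ATP synthase head (chromosome 2, 174461072 to 174464105), was lower in the deeper layers. GFP mice had 145, 106 and 119 CPM in L2-3 and 105, 99.4 and 104 in L5-6; FOXP2 mice had 133, 113.5 and 136 CPM in L2-3 and 106, 94.5 and 99.8 in L5-6. Every L2-3 library lay above every L5-6 library, if only just (105.9 against 105.8 CPM). Over all 6 mice Atp5e fell by 0.30 ± 0.06 on the log2 scale (edgeR adjusted p = 0.000954), a call kept in 11 of 11 alternatives. Its fall in L4 was smaller (-0.17 ± 0.06, adjusted p = 0.0327). Atp5g2, of the 3 subunit c genes, fell by 0.26 ± 0.07 in L5-6 against L2-3 (adjusted p = 0.00711), and Atp5g1 and Atp5g3 were not called. Atp5a1, the alpha subunit, was higher in L4 than in L2-3 (0.16 ± 0.06, adjusted p = 0.0424), but not when any mouse other than GFP mouse 1 was left out. Atp5l was higher in L5-6, by 1.05 ± 0.19 against L2-3 (adjusted p = 0.000657) and by 0.99 ± 0.20 against L4 (adjusted p = 0.00225). Its levels were only 0.255 to 1.13 CPM in L2-3 and 1.02 to 2.34 CPM in L5-6, and its sequence is the one shared with Gm10221.

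Apart from Atp5l, the widest layer differences among nuclear members were those of tissue-restricted complex IV subunits, all at a few CPM. Cox6a2, the form known from heart and skeletal muscle and from parvalbumin interneurons, lies on chromosome 7 (128205435 to 128206387). In GFP mice it stood at 6.22, 0.901 and 2.48 CPM in L2-3, 9.76, 2.47 and 6.24 CPM in L4, and 2.34, 1.92 and 4.13 CPM in L5-6. FOXP2 mice had 1.24, 2.36 and 1.24 CPM in L2-3, 4.66, 10.2 and 2.75 in L4, and 6.93, 6.09 and 3.08 in L5-6. All 6 mice were higher in L4 than in L2-3, although the groups overlapped because mice differed several-fold. The change was 1.34 ± 0.34 over all 6 mice (edgeR adjusted p = 0.00752), a call kept in 11 of 11 alternatives. GFP mice alone gave 0.99 ± 0.36 (edgeR adjusted p = 0.1003) and FOXP2 mice 1.84 ± 0.40 (adjusted p = 0.00236). In L5-6 against L2-3, FOXP2 mice gave 1.79 ± 0.40 (adjusted p = 0.00294), while GFP mouse 1 went the other way (-1.24 on the log2 scale with a pseudocount of 0.5 CPM). Of 7 interneuron markers, 5 were higher in L4 than in L2-3. Their summed level was 186 to 291 CPM in L2-3, 232 to 325 in L4 and 229 to 346 in L5-6. Pvalb itself had 0.113 to 0.285 CPM in L2-3 of GFP mice, 0.330 to 0.878 in L4 and 0.612 to 1.32 in L5-6; in FOXP2 mice it had at most 0.165, 0.278 and 0.768. The part of interneurons in the Cox6a2 values was not tested.

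Cox4i2, Cox6b2 and Cox7a1 had the opposite order, with most RNA in L2-3, except for Cox6b2 in GFP mouse 1. Cox4i2, an isoform known from lung and from pericytes (chromosome 2, 152754173 to 152765037), stood in L2-3 at 2.63, 2.76 and 2.04 CPM in GFP mice and at 3.05, 3.23 and 3.57 in FOXP2 mice. In L4 it stood at 2.34, 1.32 and 1.31 CPM and at 1.46, 1.59 and 1.01 CPM, lower in each of the 6 mice. It was lower by 0.93 ± 0.18 in L4 and by 0.76 ± 0.18 in L5-6 over all 6 mice on the log2 scale (edgeR adjusted p = 0.00169 and 0.00334). Both calls were kept in 11 of 11 alternatives. In L4 against L2-3, GFP mice alone gave -0.62 ± 0.24 (edgeR adjusted p = 0.1255) and FOXP2 mice -1.24 ± 0.24 (adjusted p = 0.00109).

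Cox6b2, a form known from testis (chromosome 7, 4751792 to 4753094), had 1.37, 2.03 and 2.80 CPM in L2-3 of GFP mice and 4.42, 4.45 and 1.89 in FOXP2 mice. Its L4 levels were 1.56, 1.07 and 1.36 CPM and 1.39, 1.25 and 1.01 CPM. GFP mouse 1 was the only mouse not lower in L4, and the fit over all 6 gave -1.11 ± 0.24 (edgeR adjusted p = 0.00279). GFP mice alone gave -0.66 ± 0.30 (adjusted p = 0.193) and FOXP2 mice -1.54 ± 0.29 (adjusted p = 0.000879). For L5-6 against L2-3 over all 6 mice, Cox6b2 gave -0.71 ± 0.23 (adjusted p = 0.0218), a call lost in 3 of 11 alternatives. Cox7a1, a muscle form (chromosome 7, 30184144 to 30186078), had 1.14, 1.13 and 0.955 CPM in L2-3 of GFP mice and 0.585, 0.514 and 0.408 CPM in L5-6, with no overlap. In FOXP2 mice it stood at 1.86, 1.22 and 1.46 CPM and at 0.815, 0.714 and 1.19 CPM. It was lower in L5-6 than in L2-3 in all 6 mice, with a change of -0.90 ± 0.19 (adjusted p = 0.00181).

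The markers of endothelial cells and pericytes moved with these 3 genes: 6 of 6 were lower in L4 and in L5-6 than in L2-3, with a median of -1.10 and -0.89. Summed, they stood at 610 to 1249 CPM in L2-3, 329 to 473 in L4 and 352 to 620 in L5-6. Pdgfrb, a pericyte gene, had 57.0 to 77.0 CPM in L2-3 of GFP mice and 28.1 to 34.4 in L4. All 7 meningeal fibroblast markers were also lower, with a median of -4.50 in L4 and -4.96 in L5-6. The part of vessels and meninges in these values was not tested. The ubiquitous partners were not called in any layer contrast over all 6 mice: Cox4i1, Cox6a1, Cox6b1, Cox7a2 and Cox8a lay between -0.11 (Cox6b1, L5-6 against L2-3) and 0.00 (Cox4i1, L4 against L2-3). Cox7b, also a form found in most tissues, was not called over all 6 mice either. In FOXP2 mice it was called higher in L5-6 than in L2-3 (0.25 ± 0.09, edgeR adjusted p = 0.0479). That call was lost in 7 of 11 alternatives.

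**Figure D4:**
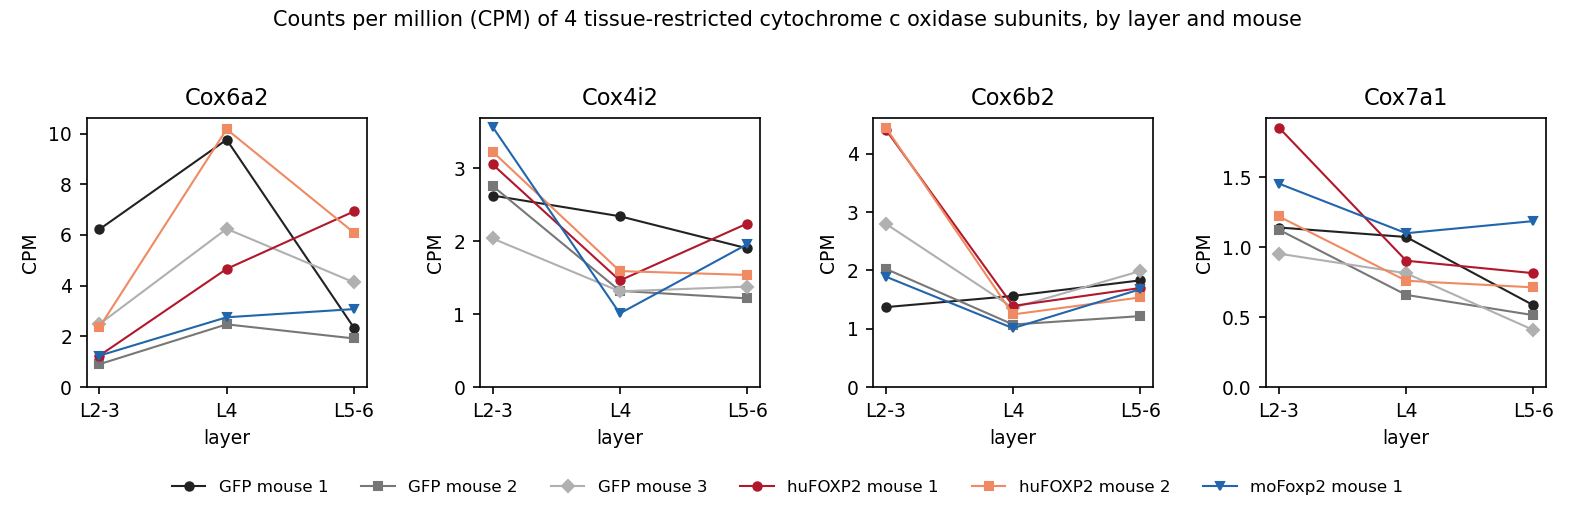
CPM (vertical, from 0) of 4 tissue-restricted complex IV subunits in each layer (horizontal), with 1 line per mouse. Cox6a2 runs upward from L2-3 to L4 in all 6 mice, Cox4i2 and Cox7a1 run downward in all 6, and Cox6b2 in 5 of 6.

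Genes that serve the respiratory complexes from outside were described over all 6 mice by their counts. In L4 against L2-3, 7 of 38 assembly factors were higher and 0 lower, with Atpaf1, a chaperone of ATP synthase, at 0.42 ± 0.11 and Ttc19, a complex III factor, at 0.38 ± 0.07. Of 13 tricarboxylic acid cycle enzymes, 6 were higher and 1 lower. Idh3a, a subunit of isocitrate dehydrogenase, gave 0.40 ± 0.08, Sucla2, the ATP-forming subunit of succinyl-CoA ligase, 0.31 ± 0.09 and Suclg2, its GTP-forming partner, -0.75 ± 0.17. Among 5 carriers 2 were higher, Cycs (cytochrome c, 0.35 ± 0.09) and Slc25a4 (the ADP/ATP exchanger, 0.22 ± 0.08). Of 17 entries for 16 glycolytic enzymes (Aldoa has 2), 6 were higher and none lower, led by Pfkp (0.71 ± 0.12) and Eno2 (0.67 ± 0.12). Ppargc1a, a coactivator known to drive mitochondrial genes, was higher in L4 (0.55 ± 0.10, edgeR adjusted p = 0.000744) and in L5-6 (0.62 ± 0.10, adjusted p = 0.000152). Of 9 genes of the outer membrane and protein import, 5 were higher, among them Vdac1, the main channel of the outer membrane (0.25). L5-6 against L2-3 gave 3 of 38 assembly factors higher and 4 lower, 6 of 13 cycle enzymes higher and 1 lower, and 5 of 17 glycolytic entries higher. Over all genes tested, 16.3% were higher and 19.1% lower in L4 than in L2-3, and 18.9% higher and 19.3% lower in L5-6 than in L2-3.

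In L5-6 against L4, where 18.6% of all genes were higher and 16.2% lower, 0 of 38 assembly factors were higher and 9 lower, with Coa7 at -0.50 ± 0.10 and Ndufaf3 at -0.38 ± 0.07. Complex II, the respiratory complex with all its subunits encoded in the nucleus, had 1 of 4 called lower, Sdhd (-0.17 ± 0.05). Cycs was lower (-0.32 ± 0.09), as were 5 of the 9 outer membrane and import genes, with Timm23 at -0.29 and Vdac1 at -0.20. Of 17 genes of mitochondrial genome expression and maintenance, 3 were higher, a share near that of all genes: Ssbp1, a single-strand DNA binding protein (0.40 ± 0.08), Pnpt1, an RNA-degrading enzyme (0.34 ± 0.08), and Polg, the mitochondrial DNA polymerase (0.26 ± 0.07). No list of the pathway other than the mt- genes had more than 3 members higher in this contrast.

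The effect of the transgene was read within each layer, from the 3 FOXP2 mice against the 3 GFP mice. No member passed in any layer. In L2-3, 0 of 75 nuclear and 0 of 7 mt- genes passed (0.0722% of all 15241 genes tested did); in L4 it was 0 of 75 and 0 of 7 (0.0275% of 14544), and in L5-6 0 of 75 and 0 of 7 (0.0196% of 15330). At an unadjusted p under 0.05 there were 0 nuclear members in L2-3, 0 in L4 and 3 in L5-6, and no mt- gene in any layer. DESeq2 also gave 0 throughout. The medians of the nuclear members were 0.00 in L2-3, 0.04 in L4 and 0.11 in L5-6, and those of the mt- genes 0.03, -0.18 and -0.21. In L5-6, 67 of 75 nuclear members lay above 0 and 7 of 7 mt- genes below. The mt- medians of L4 and L5-6 turned direction without GFP mouse 1: the medians were then 0.12 in L2-3, 0.06 in L4 and 0.02 in L5-6, with 6 of 7 above 0 in L5-6. The nuclear medians without that mouse were 0.17, 0.13 and 0.10. Without GFP mouse 2 the nuclear median in L4 was -0.05, and the mt- median in L2-3 was -0.03 without GFP mouse 3 or without the moFoxp2 mouse. No member passed when any mouse was left out. Members share libraries, so these counts rest on 3 mice against 3. GFP mouse 1 had both the highest mt- sum (63699 CPM) and the lowest nuclear sum (8974 CPM) of L5-6.

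mt-Nd1 shows the spread in L5-6: 10643, 7096 and 7021 CPM in GFP mice, and 7677, 6813 and 6933 CPM in FOXP2 mice. Those groups overlapped, with GFP mouse 1 above all others. The nuclear members of smallest p in L5-6 were Ndufb6 (0.22 ± 0.09), Cox6a2 (0.93 ± 0.39) and Cox7a1 (0.83 ± 0.36), each with an edgeR adjusted p of 0.713. For Ndufb6, an accessory complex I subunit, L5-6 values were 41.05, 44.8 and 48.1 CPM in GFP mice and 53.04, 52.6 and 51.8 CPM in FOXP2 mice, with no overlap. In L4 they were Ndufc2 (0.19 ± 0.10), Atp5g2 (0.17 ± 0.12) and Atp5g3 (0.12 ± 0.09), each with an adjusted p of 0.9999. In L2-3, Cox6b2 (0.80 ± 0.39, adjusted p = 0.363), Ndufs1 (-0.20 ± 0.11, 0.418) and Cox7a1 (0.51 ± 0.29, 0.445) had the smallest p. Endothelial and pericyte markers summed to 610 to 739 CPM in L2-3 of GFP mice and to 855 to 1249 CPM in FOXP2 mice. Their part in the Cox7a1 and Cox6b2 values was not tested.

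**Figure D5:**
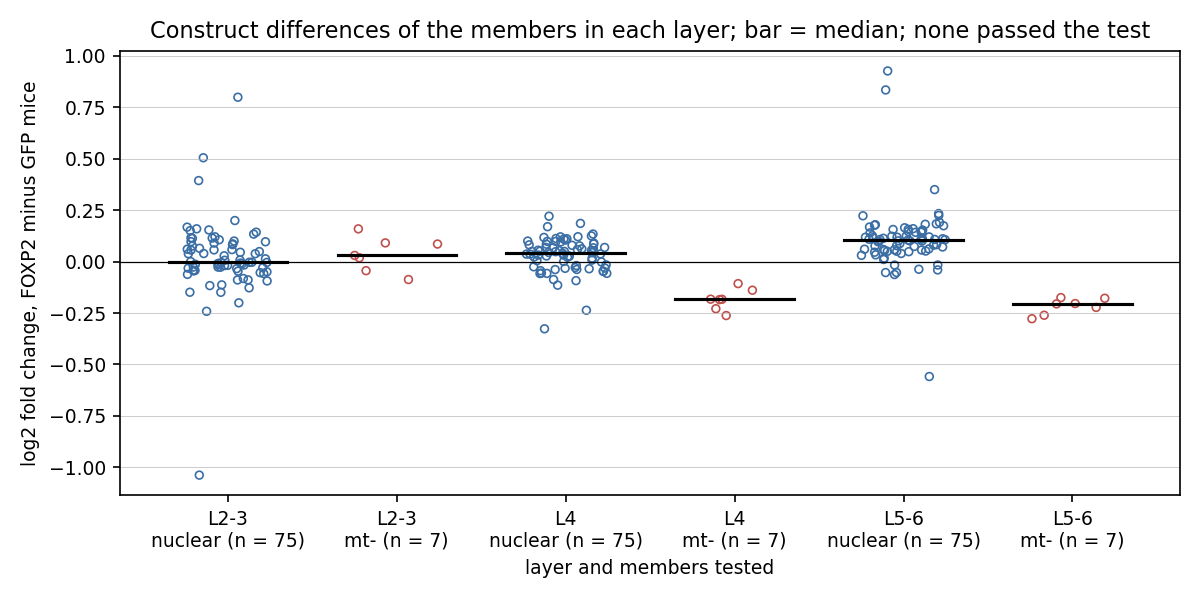
Log2 fold change of FOXP2 against GFP mice (vertical) for each member tested in each layer, nuclear (blue, 75) and mt- (red, 7), with the median as a bar. No point passed the test, and the medians lie between -0.21 and 0.11; without GFP mouse 1 no mt- median is below 0.

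The human and mouse constructs were compared over the summed layers of each mouse, where 76 nuclear and 7 mt- genes were tested. For huFOXP2 against GFP, moFoxp2 against GFP and huFOXP2 against moFoxp2, 0 members passed, and 0 had an unadjusted p under 0.05; DESeq2 gave 0 as well. Of all 18825 genes, 0.0159%, 0.0106% and 0.0% passed. The first 2 of these comparisons share the GFP mice, and the lone moFoxp2 mouse was assumed to vary like the others. Nuclear medians were 0.06, 0.03 and 0.02 and mt- medians -0.12, -0.10 and -0.02. Without GFP mouse 1 the mt- medians against GFP turned to 0.07 (huFOXP2) and 0.09 (moFoxp2), and the nuclear ones were 0.12 and 0.11. Nuclear medians against GFP fell to -0.01 (huFOXP2) and -0.03 (moFoxp2) without GFP mouse 2, and the moFoxp2 one to 0.00 without GFP mouse 3. Between the constructs the mt- median was 0.08 without huFOXP2 mouse 2. Between the constructs, Cox6a2 gave 1.12 ± 0.72 and Cox6b2 0.69 ± 0.37, each with an edgeR adjusted p of 1.0. Against GFP, Cox6b2 gave 0.59 ± 0.26 for huFOXP2, and Cox7a1 0.43 ± 0.32 for huFOXP2 and 0.64 ± 0.40 for moFoxp2, none past the threshold.

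Whether FOXP2 and GFP mice differed by layer was tested as the FOXP2 effect in one layer minus that in L2-3. Some marker sums of the L2-3 libraries differed between these groups with no overlap. Neuron markers stood at 6835 to 7516 CPM in FOXP2 mice and 7589 to 8535 CPM in GFP mice. Meningeal markers stood at 1412 to 2022 CPM and 394 to 1172 CPM, while oligodendrocyte and microglia sums overlapped. The part of these tissue differences in the values below was not tested. For L4 no gene passed (0.0% of 15952), members included, although 1 mt- gene and 0 nuclear members had an unadjusted p under 0.05; DESeq2 gave 0 members. Smallest in p were Cox6b2 (-0.88 ± 0.43), Ndufa3 (-0.23 ± 0.12) and Ndufc2 (0.19 ± 0.10), with adjusted p from 0.303 to 0.333. For L5-6, 3 of 75 nuclear members passed as higher, against 6.75% of all genes: Cox6a2 (1.75 ± 0.56, edgeR adjusted p = 0.0489), Ndufb6 (0.37 ± 0.11, adjusted p = 0.0409) and Ndufs1 (0.33 ± 0.10, adjusted p = 0.0437). DESeq2 also gave 3. Ndufb6 stood at 59.6, 50.5 and 55.9 CPM in L2-3 of GFP mice and at 51.1, 51.5 and 48.1 CPM in FOXP2 mice, where the groups overlapped. All 3 calls were lost with RLE size factors, without the mouse as block, and when GFP mouse 1, GFP mouse 3, huFOXP2 mouse 1 or the moFoxp2 mouse was left out. Without GFP mouse 1, 1 nuclear member was instead called lower.

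Promoters of the nuclear members were searched for short motifs, since factors such as NRF1 are known to bind many respiratory genes. RefSeq promoters (GRCm38.p6, 250 bases before to 50 after the start) were matched by symbol for 62 of 79 nuclear symbols and for 16521 protein-coding genes. On either strand, GCATGCGC, the NRF1 core, was found in 9 of 62 (14.52%) and in 4.11% of all. CCGGAAGT, an ETS site, was in 8.06% and 5.94%, and ATGGCGGC, the YY1 core, in 9.68% and 3.62%. TATAAA was in 11.29% and 14.33%. These matches describe letters and not binding.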

How the data were processed

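RNA-seq counts of 18 libraries from 6 mice were analysed. The authors deposited raw read counts per gene; per the submitters' processing notes, STAR, HTSeq and the mm10 genome were used. Versions, gene models, strand and multi-match handling: not given in the sources used here. Columns were matched to samples by the labels' sample codes. Libraries of 1 group with equal replicate numbers were taken as 1 mouse. Deviations from group means correlated at 0.262 to 0.698 in 18 of 18 such pairs, so layer contrasts had the mouse as block. Nothing says that mice came from separate litters, so p-values measure the spread between these mice.

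Counts were normalized by TMM, filtered by filterByExpr (minimum count 10, total 15) and tested in R 4.3.3 with edgeR 4.0.16 (quasi-likelihood), Benjamini-Hochberg adjusted over all genes, threshold 0.05; DESeq2 1.42.0 was an alternative. Layer fits used all 18 libraries, construct fits those of 1 layer or summed layers. Layer contrasts over all 6 mice were added after the data were seen. The procedure was run on simulated data with planted changes larger than most of those described here. That run does not show how well small changes are found. Members and lists were chosen with earlier results of these data known. Named were the 13 mt- genes, isoform subunits and, per contrast, up to 6 called nuclear members per direction with a mean of at least 1 CPM, or the 3 of smallest p; Ndufa13 was named after its values were seen. Genes of other lists were named by size of change, at most 3 per list.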

Additional observations from a re-analysis of the deposited data

Results flagged for a closer look

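The interaction test of edgeR, for the FOXP2 effect in L5-6 minus that in L2-3, called 3 of 75 nuclear members. They were Cox6a2 (1.75 on the log2 scale), Ndufb6 (0.3704) and Ndufs1 (0.3271). All were higher, as were 6.75% of all genes tested, and the calls were lost in 8, 8 and 9 of 11 alternatives. Ndufs1 was above 0 in L5-6 against L2-3 in 6 of 6 mice, by 0.05 to 0.09 in the GFP mice and 0.25 to 0.61 in the FOXP2 mice. Cox6a2 was above 0 in 5 of 6 mice, with GFP mouse 1 at -1.24. Without GFP mouse 1 the interaction adjusted p of Ndufb6 was 0.125 and that of Ndufs1 0.0764, and the call of Cox6a2 was lost too. The part of tissue differences between the L2-3 libraries of FOXP2 and GFP mice in these calls was not tested.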

How the results depend on the processing

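Of 88 named members and contrasts, 936 alternative fits kept the direction in 936 and the call in 668; scaling moved the median of all genes by under 0.03 (log2). Settings that moved a count over 1.5 times follow. DESeq2 gave 2 mt- genes in L4 against L2-3 over all 6 mice and 5 in FOXP2 mice. RLE size factors gave 0 nuclear members for the FOXP2 effect in L5-6 minus L2-3, and leaving mt- genes out of library sizes gave 1. With no filter on low counts, nuclear counts were 3 and 2 (all 6 mice, L4 against L2-3 and L5-6 against L4), 1 (GFP mice, L4 against L2-3), 6 and 0 (FOXP2 mice, L4 against L2-3 and L5-6 against L4) and 1 (that FOXP2 effect). The mt- counts were then 2, 6 and 3 (L4 against L2-3 in all 6 and in FOXP2 mice, L5-6 against L2-3 in FOXP2 mice), and 1 and 4 (FOXP2 effects in L4 and in L5-6). Without the replicate block, nuclear counts were 4 and 2 (all 6 mice, L4 against L2-3 and L5-6 against L4), 2 and 1 (GFP mice, L5-6 against L2-3 and against L4), 5, 5 and 0 (FOXP2 mice, L4 against L2-3, L5-6 against L2-3 and L5-6 against L4) and 0 (FOXP2 effect in L5-6). The mt- counts without the block were 0, 1 and 3 (all 6 mice, in that order of contrasts), 0 and 1 (GFP mice, L5-6 against L2-3 and against L4), and 0 and 0 (FOXP2 mice, L4 against L2-3 and L5-6 against L4). GFP and huFOXP2 mice shared only a replicate number (6 pairs, correlations -0.289 to 0.21), and a block on it changed none of the counts of 0 between constructs. Leaving out 1 mouse in turn, nuclear counts ran from 3 to 19, 8 to 17 and 2 to 6 (all 6 mice, L4 against L2-3, L5-6 against L2-3, L5-6 against L4), 0 to 4, 2 to 8 and 1 to 7 (GFP mice), 4 to 19, 6 to 20 and 0 to 2 (FOXP2 mice), and 0 to 3 (FOXP2 effect in L5-6). The mt- counts ran from 0 to 6 and 0 to 5 (all 6 mice, L4 and L5-6 against L2-3), 0 to 7 and 1 to 7 (GFP mice, L5-6 against L2-3 and against L4), 0 to 6, 0 to 1 and 0 to 7 (FOXP2 mice) and 0 to 1 (FOXP2 effect in L5-6). The cause was not tested. Members near 1 CPM rest on few reads a library, and 3 mice a group limit what could be detected between constructs.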
